A study of Mus musculus with 8 samples.

Results

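A set of 10 genes that p53 is known to switch on, or that act beside it, was followed in dystrophic mouse muscle, taken from a table of 43628 genes by their symbols; all 10 were found there. They comprised the p53 gene itself (Trp53), its inhibitor Mdm2, the cell cycle genes Cdkn1a and Ccng1, the 3 stress genes Gadd45a, Gadd45b and Gadd45g, the receptor gene Eda2r, the death gene Bbc3 and the metabolic stress gene Sesn2. RNA was sequenced from the quadriceps, the large front thigh muscle, of male mice aged 8 weeks, and each library was a pool of several mice of 1 genotype. WT mice were C57BL/10ScSnJ (14 mice in 3 pools of 4 to 6). The mdx mice (C57BL/10ScSn-Dmdmdx/J, 15 mice in 3 pools of 4 to 6) lack dystrophin and share the WT background. The dy2J mice (dy2J/dy2J, C57BL/6J with Lama2dy-2J, 11 mice in 2 pools of 5 or 6) carry a shortened laminin-α2 chain. Their background, C57BL/6J, has no control group of its own in these data, so in both comparisons that involve dy2J the strain and the Lama2 mutation cannot be told apart. Every n below counts pools, and the spread between single mice was not measured.

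The p53 protein is a transcription factor that is held low by Mdm2, which marks it for destruction, and rises when DNA is damaged or ribosomes are disturbed, mostly through its stability and not through more of its mRNA. It then binds DNA at pairs of a short decamer sequence and raises genes that stop the cell cycle (Cdkn1a, encoding p21), kill the cell (Bbc3, encoding Puma), slow growth (Sesn2) or shut p53 off again (Mdm2, Ccng1). Several of these genes also answer to other factors. In mouse muscle cells Cdkn1a rises with MyoD as myoblasts leave the cell cycle, and in denervated mouse muscle Gadd45a is raised through HDAC4.

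Levels are FPKM (fragments scaled to transcript length and to the mapped fragments of a library), as the authors deposited them. Fold changes are log2 differences of FPKM + 1 with a standard error (SE) from limma over all 8 libraries, and a gene is called where its p, adjusted by Benjamini-Hochberg over 12830 tested genes, is under 0.05. All 10 genes passed the expression minimum of 1 FPKM in at least 2 libraries. The targeted genes went with the labels: the mean FPKM of Dmd was 29.8 for WT, 4.58 for mdx and 25.4 for dy2J, and that of Lama2 was 9.40, 11.0 and 5.19. Libraries correlated at 0.973 to 0.987 within groups and 0.897 to 0.965 between groups on the log2 scale, and no pair held identical values. The summed level of 9 muscle fibre markers (Ckm, Mb, Ttn and others) was 44201 to 50900 FPKM over WT pools, 26944 to 39803 over mdx pools, and 26422 to 27417 over dy2J pools, so fibre markers were abundant in every library.

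In mdx against WT, 5 of the 10 genes were called higher (Cdkn1a, Eda2r, Gadd45a, Bbc3 and Trp53) and 1 lower (Ccng1). Of all tested genes, 23.9% were called higher and 12.8% lower in that comparison. In dy2J against WT, 3 were higher (Cdkn1a, Eda2r and Bbc3) and 2 lower (Gadd45b and Gadd45g), where 11.5% of all tested genes were higher and 9.04% lower. In dy2J against mdx, none was called higher and Gadd45b was called lower, where 2.77% of all tested genes were higher and 3.66% lower. The median log2 fold change of the 10 genes was 0.35, 0.05 and -0.14 in the 3 comparisons, beside 0.07, 0.01 and -0.08 over all tested genes. Both comparisons against WT use the same 3 WT pools. The shares of all tested genes given here are the background for each list count below. With the libraries scaled to a common distribution (quantile normalization) or by median ratios, the calls of Gadd45a and Bbc3 in mdx were lost, leaving 3 higher and 1 lower under each. Without WT replicate 3 the number of called genes in mdx went from 6 to 3, and without dy2J replicate 1 that in dy2J against WT went from 5 to 2. In dy2J against mdx it was 0 without either dy2J pool and 2 without WT replicate 1, WT replicate 3 or mdx replicate 2.

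**Figure D1:**
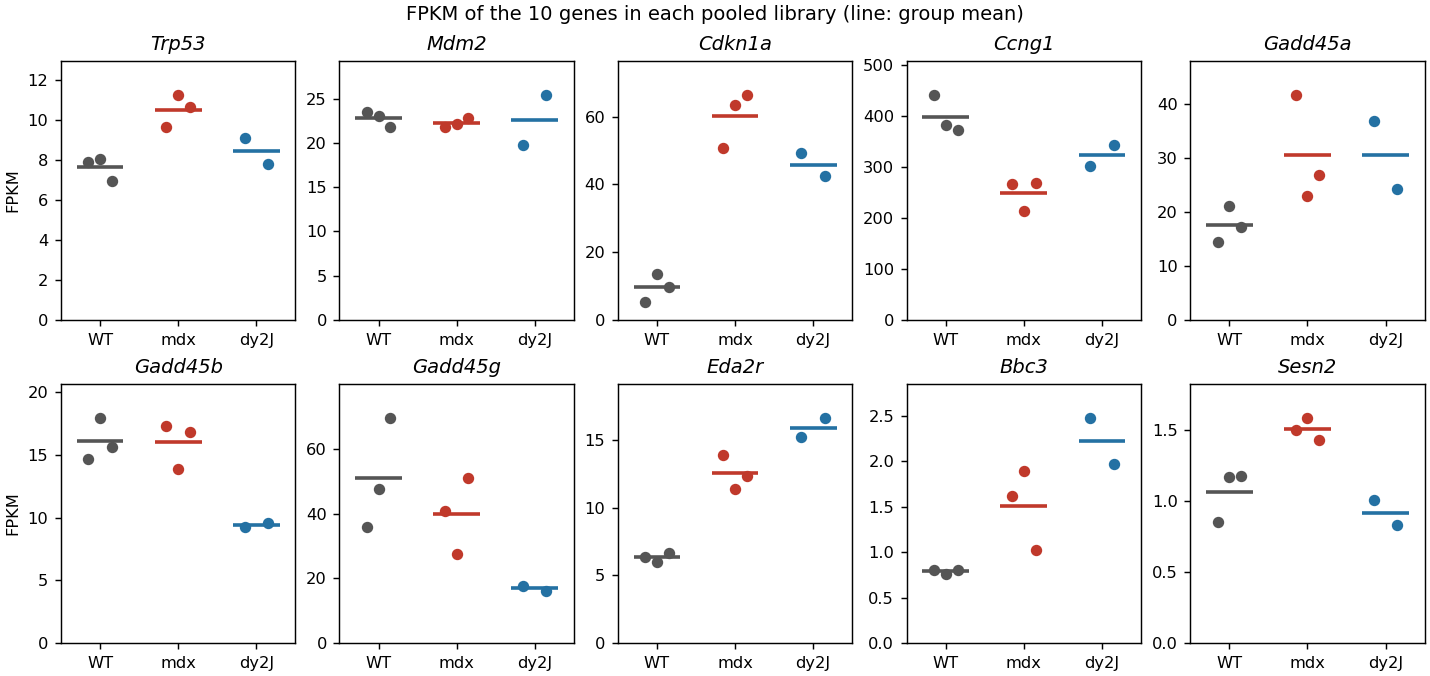
FPKM of the 10 genes in each of the 8 pooled libraries (points) with the group mean (line), on axes that start at 0 and differ between panels. Cdkn1a and Eda2r lie higher in every mdx and dy2J library than in any WT library, Ccng1 lies lower, Mdm2 overlaps across the groups, and Gadd45b and Gadd45g lie lower in both dy2J libraries than in all 6 others.

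**Figure D2:**
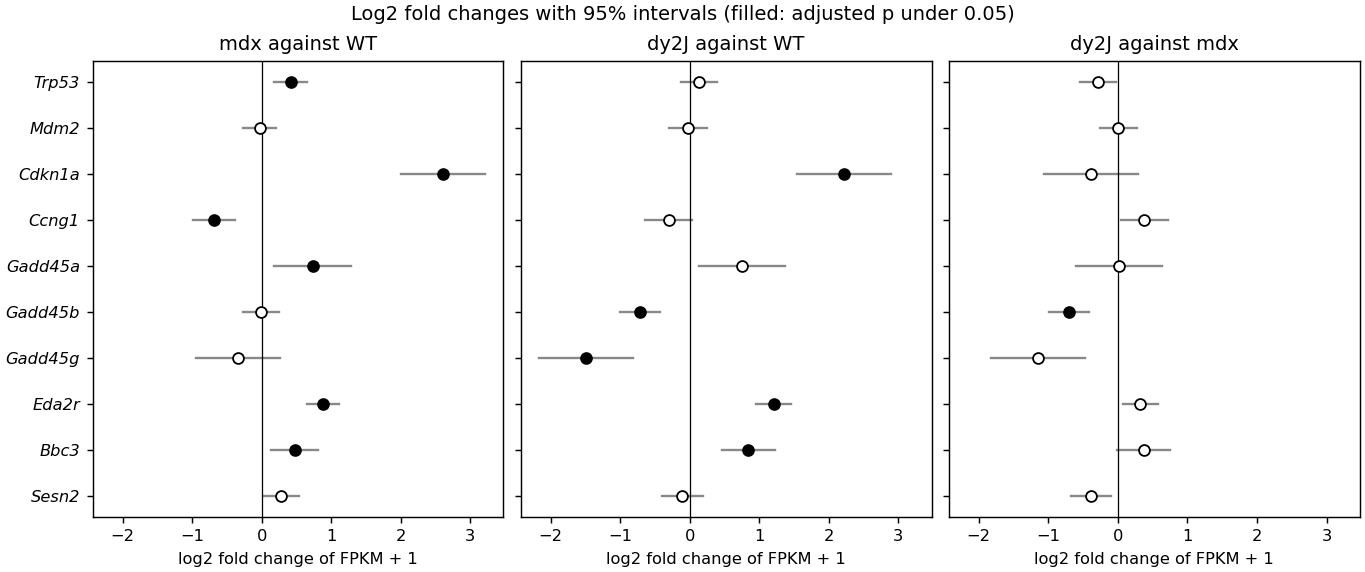
Log2 fold change of FPKM + 1 for each gene in the 3 comparisons, with 95% intervals from limma; filled points have an adjusted p under 0.05. Cdkn1a has the largest rises (2.60 in mdx and 2.22 in dy2J), Gadd45g the largest fall (-1.49 in dy2J against WT), and the intervals of Mdm2 include 0 in all 3 panels.

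Trp53 and Mdm2 form the control loop of the pathway. Trp53 stood at 7.90, 8.06 and 6.92 FPKM in WT, at 9.65, 11.2 and 10.6 in mdx, and at 9.10 and 7.80 in dy2J. All 3 mdx pools were above all WT pools, while the dy2J pools overlapped WT and lay below every mdx pool. Its mRNA was higher in mdx by 0.42 ± 0.10 (SE, limma adjusted p = 0.0139), a call that was lost without WT replicate 3 (adjusted p = 0.0573, range over the alternatives 0.0132 to 0.0573). In dy2J against WT the difference was 0.13 with a 95% interval of -0.13 to 0.39 (limma adjusted p = 0.448). In the authors' deposited table the q-value of Trp53 in mdx was 0.0799.

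Mdm2, the ubiquitin ligase that p53 itself raises, stood at 23.5, 23.0 and 21.8 FPKM in WT, 21.9, 22.2 and 22.8 in mdx, and 19.7 and 25.4 in dy2J. The 3 groups overlapped. The difference from WT was -0.03 in mdx (95% interval -0.27 to 0.21, limma adjusted p = 0.849) and -0.02 in dy2J (95% interval -0.29 to 0.25, limma adjusted p = 0.909). The sign of the dy2J difference turned to 0.01 under quantile normalization.

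Among 21 further genes of the p53 family and its regulators, 19 were tested, of which 3 were higher and 3 lower in mdx, and 2 higher and 2 lower in dy2J, against WT. Hipk2, a kinase that can phosphorylate p53, fell by 1.12 ± 0.13 on the log2 scale in mdx (limma adjusted p = 0.000713), with WT pools at 34.3, 30.0 and 35.3 FPKM and mdx pools between 12.1 and 16.7. It stood at 13.5 and 15.8 FPKM in dy2J, -1.13 ± 0.15 from WT (limma adjusted p = 0.00236). Ribosomal protein genes whose products can bind Mdm2 were also higher in mdx, Rpl11 by 0.50 ± 0.10 (limma adjusted p = 0.00640) and Rpl5 by 0.31 ± 0.10 (limma adjusted p = 0.0440); Rpl5 stands outside the rule for named genes and was chosen after its values were seen. Trp63, the p53 relative of epithelia, whose TAp63 form is also made in muscle, was the member called higher in dy2J against both groups: 7.07 and 8.70 FPKM in dy2J, 4.03 to 4.14 in WT and 2.90 to 3.74 in mdx (1.01 ± 0.12 against mdx, limma adjusted p = 0.00364). Usp7, a deubiquitinase of Mdm2 and p53, was lower in dy2J by 0.45 (log2 fold change -0.45 ± 0.09, limma adjusted p = 0.0139).

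Cdkn1a encodes p21, which binds cyclin-dependent kinases and halts the cell cycle. It stood at 5.39, 13.6 and 9.77 FPKM in WT, at 50.7, 63.6 and 66.5 in mdx, and at 49.2 and 42.4 in dy2J. The lowest dystrophic pool was over 3 times the highest WT pool, and both dy2J pools lay below every mdx pool. Mean FPKM was 6.28 times WT in mdx and 4.78 times WT in dy2J. On the log2 scale the rises were 2.60 ± 0.27 (limma adjusted p = 0.000415) and 2.22 ± 0.30 (limma adjusted p = 0.00243), and both were called under each of the 17 alternative settings. The difference between dy2J and mdx was -0.38 with a 95% interval of -1.06 to 0.29 (limma adjusted p = 0.456). The gene lies on the plus strand of chromosome 17 (ENSMUSG00000023067, GRCm38, chr17:29090979-29100722), and a putative gene of the opposite strand, AC167363.2, overlaps its exons; the strand setting of the counting is not given.

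The 250 bases before the upstream RefSeq start site of Cdkn1a (GRCm38.p6, chr17:29090729-29090978, plus strand) are shown. Beside them are those of Ccng1 (chr11:40755287-40755536, minus strand), Gadd45a (chr6:67037408-67037657, minus strand) and Mdm2 (chr10:117710759-117711008, minus strand). They were chosen because these genes carry the p53 decamer consensus there and were called higher, called lower or not called. Capitals mark each match to the p53 decamer consensus.
Cdkn1a: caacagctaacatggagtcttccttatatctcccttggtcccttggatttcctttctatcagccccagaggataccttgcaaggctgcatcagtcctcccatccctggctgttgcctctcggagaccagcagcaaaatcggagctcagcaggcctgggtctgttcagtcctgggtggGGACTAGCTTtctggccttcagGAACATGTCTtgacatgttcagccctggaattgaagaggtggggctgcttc
Ccng1: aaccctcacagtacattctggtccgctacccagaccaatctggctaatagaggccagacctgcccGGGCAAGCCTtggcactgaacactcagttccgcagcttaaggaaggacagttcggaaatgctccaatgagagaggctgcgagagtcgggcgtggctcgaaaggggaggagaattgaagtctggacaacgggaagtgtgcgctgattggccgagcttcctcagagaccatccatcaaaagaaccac
Gadd45a: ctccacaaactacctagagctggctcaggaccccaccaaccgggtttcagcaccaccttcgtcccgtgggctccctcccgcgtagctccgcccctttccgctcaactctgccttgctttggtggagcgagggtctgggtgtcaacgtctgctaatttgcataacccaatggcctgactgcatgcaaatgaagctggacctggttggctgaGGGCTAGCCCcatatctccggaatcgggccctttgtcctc
Mdm2: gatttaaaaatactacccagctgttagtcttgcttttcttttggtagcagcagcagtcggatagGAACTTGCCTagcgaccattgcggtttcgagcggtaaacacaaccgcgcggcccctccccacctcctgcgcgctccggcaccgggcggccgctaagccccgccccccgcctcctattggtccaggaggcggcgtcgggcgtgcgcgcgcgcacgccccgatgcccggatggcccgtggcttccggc

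The sequences are from RefSeq promoter windows (250 bases before to 50 bases after a start site), in which all 10 genes were matched by symbol with 13 windows. Both strands were searched. The decamer consensus stood in 5 of the 13 windows, those of Cdkn1a, Ccng1, Gadd45a, Mdm2 and Trp53, and in 8.36% of all 32851 windows. In Cdkn1a the matches began 73 and 51 bases before the upstream start site (positions -73 and -51), and in Ccng1, Gadd45a and Mdm2 at -185, -40 and -186. A full p53 response element is usually a pair of decamers, side by side or some bases apart. Only directly adjacent pairs were searched. A second decamer directly beside the first, with at most 1 mismatch, was found in Cdkn1a (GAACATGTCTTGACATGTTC, from -51) and in Ccng1 (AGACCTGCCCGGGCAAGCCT, from -195), and in 29 of all windows (0.0883%). Cdkn1a and Ccng1, the members with such a pair, went opposite ways in mdx. The windows of Eda2r, Bbc3, Sesn2, Gadd45b and Gadd45g held no match, which says only that these letters are not in these windows. CCAAT, in either direction, stood in 9 of the 13 windows and in 37.4% of all windows. The E-box CAGCTG, the kind of site that MyoD and myogenin bind, stood in 3 of the 13 windows and 16.3% of all. It lay in Gadd45g at -55, in Mdm2 at -233 and in Cdkn1a at 38 bases after the upstream start. The window at the downstream Cdkn1a start site, 2790 bases away, held no match to the decamer, CCAAT or the E-box. A match is a description of the sequence, not a bound site.

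Of the 6 other CDK inhibitor genes, 5 were tested and 4 were called higher in mdx: Cdkn1c, Cdkn2a, Cdkn2c and Cdkn2d. Cdkn1c, encoding p57, stood at 7.84 to 10.2 FPKM for WT and 18.7 to 23.1 in mdx (1.10 ± 0.13, limma adjusted p = 0.000633), and at 9.37 and 7.71 with dy2J, -1.19 ± 0.14 from mdx (limma adjusted p = 0.00327). Cdkn2d was higher in mdx by 0.92 ± 0.15 (limma adjusted p = 0.00208), and Cdkn2c was higher in mdx by 0.42 ± 0.12 (limma adjusted p = 0.0246) and in dy2J by 0.54 ± 0.13 (limma adjusted p = 0.0250). Cdkn2a, whose locus encodes p16 and the Mdm2 inhibitor p19Arf, was listed at 0, 0.138 and 0.0866 FPKM in WT, 3.51, 2.81 and 1.99 in mdx, and 0.636 and 0.710 in dy2J; it is named outside the rule because of its value listed at 0, and its 2 products are not told apart in a gene total. Cdkn1b, encoding p27, was between 11.8 and 15.0 FPKM in all 8 libraries and was not called. Cdkn1a made up 19.2 to 37.6% of the summed FPKM of Cdkn1a, Cdkn1b and Cdkn1c over WT pools, 60.4 to 65.1% over mdx pools, and 69.4 and 68.5% with dy2J. The shares of WT and of either model did not overlap. The exact permutation test gave p = 0.1 for each, which is the smallest p that these numbers of pools allow. Cdkn1a is itself part of the share and was already seen to differ, so this p lends no further support.

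**Figure D3:**
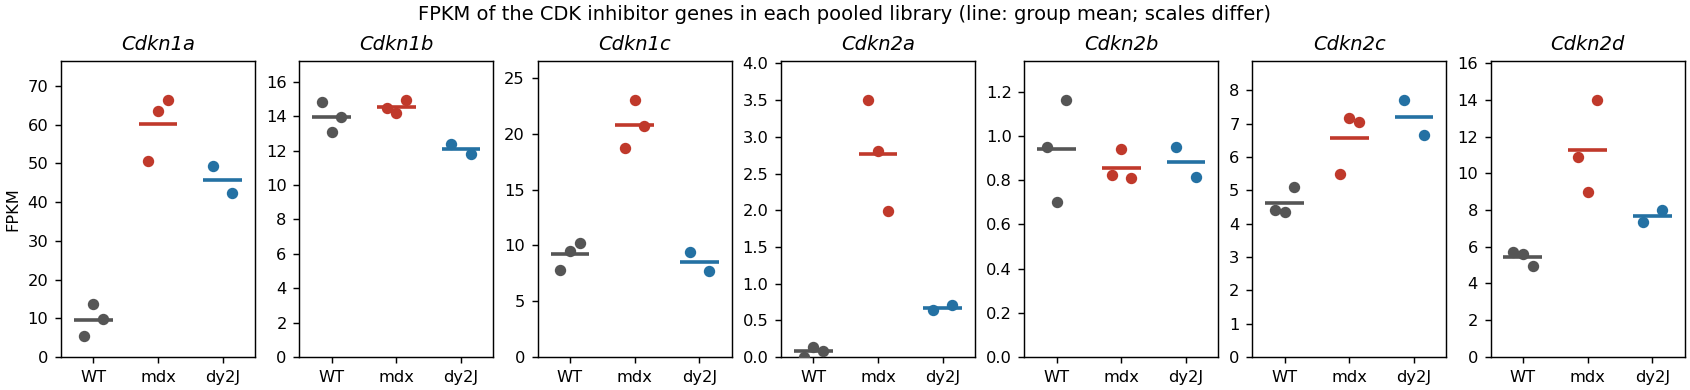
FPKM of the 7 CDK inhibitor genes in each pooled library (points) with the group mean (line); axes start at 0 and differ between panels. Cdkn1a is high in both models, Cdkn1c and Cdkn2a are highest in mdx, and Cdkn1b stays between 11.8 and 15.0 FPKM.

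Of 12 genes for the cyclins and kinases that p21 binds, all tested, 9 were higher and none lower in mdx, and 3 were higher and none lower in dy2J. Cdk1, the mitotic kinase, stood at 0.414 to 0.810 FPKM across the WT pools, 3.39 to 8.68 across the mdx pools, and 2.62 and 1.60 with dy2J (1.97 ± 0.27 in mdx, limma adjusted p = 0.00113). Ccna2 was higher in mdx by 1.40 ± 0.31 (limma adjusted p = 0.00824). In dy2J the 3 called genes were Ccnd1 (0.65 ± 0.18, limma adjusted p = 0.0369), Cdk4 (0.48 ± 0.13, limma adjusted p = 0.0387) and Ccnd2 (0.47 ± 0.11, limma adjusted p = 0.0212). Under quantile normalization 1 of the 12 genes was called lower in mdx, and the number called higher in dy2J went from 3 to 1.

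Where Cdkn1a rose, markers of some cell types other than muscle fibres rose too, but not of all. As counted further below, some endothelial markers were called lower in both models and some Schwann cell markers lower in mdx. The summed FPKM of 11 macrophage markers was 175 to 206 in WT, 813 to 1608 in mdx and 479 to 587 in dy2J, and 10 of the 11 were called higher in mdx and 8 in dy2J. The 6 markers of satellite cells and myoblasts (Pax7, Myf5, Myod1 and others) summed to 18.6 to 25.6 FPKM over WT pools, 47.1 to 59.6 over mdx pools, and 24.8 to 27.8 over dy2J pools, with 4 called higher in mdx and none in dy2J; Cdh15 was listed at 0 in a WT pool. The 6 markers of proliferating cells summed to 2.04 to 2.32 FPKM over WT pools, 10.4 to 31.9 over mdx pools, and 7.60 to 8.23 over dy2J pools, with 5 of the 5 tested higher in mdx and 1 in dy2J. Pax7, the defining gene of satellite cells, was 0.260 and 0.268 FPKM in dy2J, below all WT pools (0.573 to 0.745). These levels are under 1 FPKM, and Pax7 was not called in dy2J against WT. Under quantile normalization 1 of the 6 satellite cell markers was called lower there. In whole muscle, more cells of a type and more RNA per cell cannot be told apart. The part of these cells in the level of Cdkn1a, or of the other 9 genes, was not tested.

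Of 10 myogenic factors, 8 were higher in mdx and 3 in dy2J, none lower, though 1 was lower in dy2J under quantile normalization. Myog, which drives myoblast differentiation, stood at 2.09 to 2.72 FPKM across the WT pools, 19.0 to 26.6 across the mdx pools, and 15.4 and 14.2 with dy2J (2.89 ± 0.14 and 2.26 ± 0.16, limma adjusted p = 1.21e-05 and 0.000121). Tmem8c, which encodes the fusion protein myomaker, rose from at most 0.593 FPKM in WT to between 23.6 and 46.1 in mdx and to 8.99 and 7.97 in dy2J (limma adjusted p = 1.21e-05 and 0.000524). Of 13 denervation genes, 8 were higher and 1 lower in mdx, and 6 higher and 1 lower in dy2J, among them Chrna1, a subunit of the acetylcholine receptor (2.30 ± 0.23 in mdx, limma adjusted p = 0.000406), Ncam1 (3.03 ± 0.38 in mdx, limma adjusted p = 0.000839) and Runx1 (1.61 ± 0.21 in dy2J, limma adjusted p = 0.00209). The genes Fbxo32 and Trim63, which encode the ubiquitin ligases of muscle atrophy, were tested and not called in any comparison; they stand outside the rule for named genes and were chosen after their values were seen.

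Over the 8 libraries, the genes with the profile closest to that of Cdkn1a were Aif1l, Myog and Plac8, out of 11438 named genes with no value listed at 0. Likeness was the mean absolute difference of log2(FPKM + 1) after each gene was centred on its WT mean, and was 0.20 for Aif1l, 0.26 for Myog and 0.30 for Plac8. This is a description over 8 libraries that share the same 3 groups.

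Ccng1 encodes cyclin G1, which brings a phosphatase to Mdm2. It was the most abundant of the 10 genes, at 442, 382 and 372 FPKM in WT, 266, 213 and 269 in mdx, and 303 and 343 in dy2J. All mdx pools were below all dy2J pools, and these below all WT pools. It fell by 0.68 on the log2 scale in mdx (SE 0.13, limma adjusted p = 0.00494), a call kept under each of the 17 alternative settings. In dy2J it was -0.30 from WT with a 95% interval of -0.64 to 0.04 (limma adjusted p = 0.181). The difference between dy2J and mdx was 0.38 with a 95% interval of 0.04 to 0.72 and did not pass the adjustment (limma adjusted p = 0.153). The closest profiles were those of Tob1, an antiproliferative gene (115.6 mean FPKM for WT, 70.0 for mdx and 93.0 for dy2J), Smyd1, a methyltransferase of striated muscle (224, 138 and 173 FPKM), and Lypla1, at 0.04, 0.05 and 0.05. Muscle fibre markers were lower in mdx as well, 6 of 9 with none higher, with a median log2 fold change of -0.56. They were also lower in dy2J, 6 of 9 with none higher and a median of -0.76. Ccng1 was not called there. The order of the models depended on the scaling. Under quantile normalization 8 of 9 fibre markers were lower in mdx (median -0.67) and 4 of 9 in dy2J (median -0.37). The part of fibre content in the level of Ccng1 was not tested. Of 7 related cyclins, 6 were tested: Ccnt1 and Ccnl1 were higher and Ccnk lower in mdx. Ccnk was lower in both models, at 43.2 to 47.2 FPKM across the WT pools, 21.4 to 27.2 across the mdx pools, and 20.6 and 25.6 with dy2J (-0.93 ± 0.12 and -0.95 ± 0.14, limma adjusted p = 0.00103 and 0.00344), while Ccng2 was not called.

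The 3 Gadd45 genes encode small nuclear proteins that bind cyclin-dependent kinase 1, PCNA and the kinase MAP3K4 and take part in stress signalling and DNA demethylation. They did not move together. Gadd45a, the p53-responsive one, stood at 14.4, 21.1 and 17.3 FPKM in WT, 41.7, 23.0 and 26.9 in mdx, and 36.8 and 24.2 in dy2J. Every dystrophic pool lay above every WT pool, but the pools within each model differed by more than 1.5 times. The rise was 0.73 ± 0.24 in mdx (limma adjusted p = 0.0427) and 0.75 ± 0.27 in dy2J (limma adjusted p = 0.0833). The mdx call held in 9 of 17 alternatives, with adjusted p from 0.0305 to 0.126, and was lost without WT replicate 1 or 3 and without mdx replicate 1 or 3, among other settings. The dy2J rise was called without mdx replicate 1 alone (adjusted p = 0.0441, range 0.0441 to 0.450). In the authors' deposited table its q-value was 0.000749 in both comparisons.

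The values of Gadd45a carry a doubt of annotation. E230016M11Rik, a noncoding transcript of the opposite strand, shares exon sequence with it (GENCODE M21, GRCm38, Gadd45a at chr6:67035096-67037457, minus strand). Its FPKM was 8.08, 13.5 and 10.6 in WT, 23.8, 15.0 and 17.1 in mdx, and 20.2 and 14.0 in dy2J. It stood between 0.55 and 0.65 times Gadd45a in each of the 8 libraries. Without the strand setting of the counting, reads of the 2 genes cannot be told apart.

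Gadd45b stood at 14.7, 18.0 and 15.7 FPKM in WT, 17.3, 13.9 and 16.9 in mdx, and 9.26 and 9.54 in dy2J. WT and mdx overlapped, and both dy2J pools were below all 6 others. The difference in mdx was -0.01 with a 95% interval of -0.27 to 0.25 (limma adjusted p = 0.959). In dy2J Gadd45b was lower than WT (-0.72 ± 0.13, limma adjusted p = 0.00691) and lower than mdx (-0.71 ± 0.13, limma adjusted p = 0.0170). The first call was lost without dy2J replicate 1 (adjusted p = 0.0687, range over the alternatives 0.00390 to 0.0687), and the second without either dy2J pool (adjusted p = 0.120 without replicate 1 and 0.101 without replicate 2, range 0.0113 to 0.120). The call against mdx was also lost with the replicate number as a block in the model (limma adjusted p = 0.0570). Zranb1, Fam78a and Wdr44 had the closest profiles, at 0.08, 0.10 and 0.11.

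Gadd45g stood at 35.8, 47.4 and 69.5 FPKM in WT, 40.8, 27.6 and 51.0 in mdx, and 17.6 and 16.1 in dy2J. WT and mdx overlapped, with WT pools spread over almost 2 times, and both dy2J pools were below the rest. It was -0.34 from WT in mdx (95% interval -0.94 to 0.27, limma adjusted p = 0.346) and -1.49 ± 0.30 in dy2J (limma adjusted p = 0.0110), where the mean was 0.332 times WT. Leaving out dy2J replicate 1 or 2 raised the adjusted p to 0.0734 or 0.0656 (range over the alternatives 0.00654 to 0.0734). Against mdx the difference was -1.15 ± 0.30 (limma adjusted p = 0.0554); it passed with quantile normalization (adjusted p = 0.0440) and without WT replicate 1, WT replicate 3 or mdx replicate 2 (range over the alternatives 0.0316 to 0.257). The closest profile was that of Sgk1, a kinase gene raised by glucocorticoids (114.6 mean FPKM for WT, 84.0 for mdx and 34.4 for dy2J), at 0.14, followed by Tfcp2l1 (0.21) and Chac1 (0.22).

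The make-up and the sum of the 3 genes were also described. Gadd45a was 0.402, 0.444 and 0.249 times Gadd45g in WT, 1.02, 0.832 and 0.527 times in mdx, and 2.09 and 1.50 times in dy2J. The ratios of the 3 groups did not overlap. On the log2 scale the ratio averaged -1.50 ± 0.45 (SD, n = 3) in WT, -0.39 ± 0.49 (SD, n = 3) in mdx and 0.82 ± 0.33 (SD, n = 2) in dy2J, and the exact permutation test gave p = 0.1 for each pair of groups, the smallest these numbers allow. This ratio was chosen after its values were seen and after the groups were found not to overlap, so this p lends no support to a difference. The doubt over the reads of Gadd45a given above applies to the ratio as well. The summed FPKM of the 3 genes was 84.6 ± 18.9 (SD, n = 3) in WT, 86.3 ± 19.1 (SD, n = 3) in mdx and 56.8 ± 9.79 (SD, n = 2) in dy2J, with exact permutation p = 1.0 for mdx and 0.2 for dy2J against WT. Both dy2J sums (63.7 and 49.9 FPKM) lay below every WT and mdx pool, the lowest of which were 64.8 in WT and 64.5 in mdx.

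**Figure D4:**
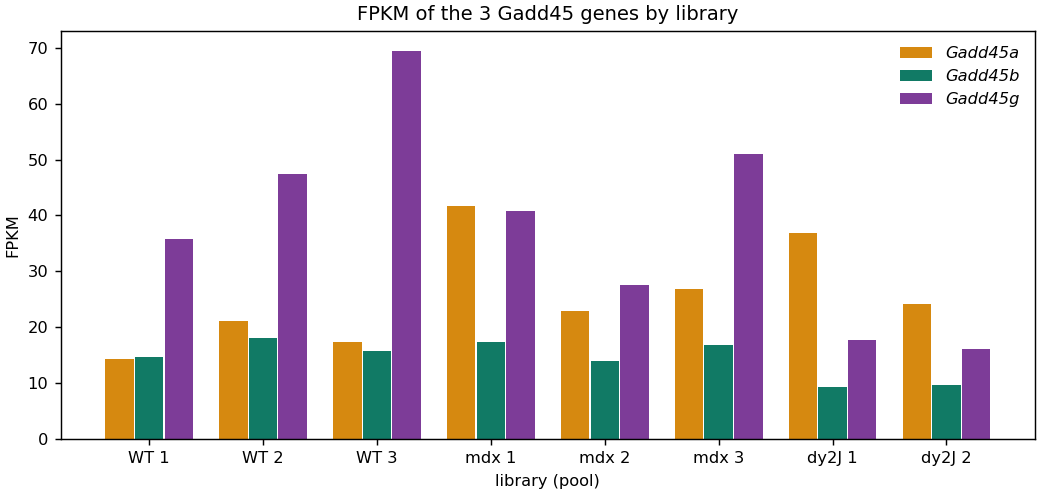
FPKM of Gadd45a, Gadd45b and Gadd45g in each of the 8 pooled libraries (bars from 0). Gadd45g is the highest bar in every WT library, while Gadd45a is the highest in both dy2J libraries (36.8 and 24.2 FPKM against 17.6 and 16.1 for Gadd45g).

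Of 13 listed Gadd45 partners and genes of the p38 and JNK pathways, 12 were tested; 7 were lower and none higher in mdx, and 5 lower and none higher in dy2J, with median log2 fold changes of -0.41 and -0.36. With quantile normalization or median-ratio rescaling none was higher in either comparison with WT and 9 were lower in mdx. Map2k6, which activates p38, stood at 22.3 to 27.6 FPKM across the WT pools, 9.33 to 14.2 across the mdx pools, and 8.15 and 10.8 with dy2J (-1.10 ± 0.17 and -1.29 ± 0.19, limma adjusted p = 0.00188 and 0.00372). Map2k4, which activates JNK and p38, was -0.63 ± 0.12 and -0.81 ± 0.14 from WT (limma adjusted p = 0.00534 and 0.00619). Mapkapk2, a kinase that p38 switches on, was lower in mdx (-0.54 ± 0.09, limma adjusted p = 0.00252). Of 8 DNA demethylation genes, 6 were tested: Mbd4 was called higher in mdx (0.42 ± 0.12, limma adjusted p = 0.0253, not called under quantile normalization) and Tet3 lower in dy2J (-0.43 ± 0.12, limma adjusted p = 0.0377).

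Genes of the integrated stress response, the ATF4 pathway that can also raise Gadd45a, were described by 13 symbols, 11 of them tested. The list also holds Xbp1 and Hspa5, which are not specific to that pathway. Called higher were 2 in mdx (18.2%) and 4 in dy2J (36.4%), with none lower. Of all tested genes, 23.9% were higher in mdx and 11.5% in dy2J. Asns, the asparagine synthetase gene that ATF4 controls, stood at 0.769, 1.42 and 1.36 FPKM in WT, 4.05, 5.30 and 3.59 in mdx, and 4.92 and 4.83 in dy2J (1.28 ± 0.16 and 1.44 ± 0.18, limma adjusted p = 0.000791 and 0.00169). Xbp1 was higher in mdx (0.51 ± 0.10, limma adjusted p = 0.00560). Atf3 was higher in dy2J, at 16.1 and 27.1 FPKM beside 2.22 to 10.8 in WT (1.81 ± 0.49, limma adjusted p = 0.0330), as was the chaperone gene Hspa5 (0.69 ± 0.13, limma adjusted p = 0.00760). Chac1 and Ddit4 were not called and had lower means in dy2J than in WT; Chac1 averaged 34.8 FPKM in WT and 13.5 in dy2J.

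Eda2r encodes a receptor of the TNF receptor family for the ectodysplasin form EDA-A2 and is a known p53 target. It stood at 6.37, 6.00 and 6.67 FPKM in WT, 13.9, 11.4 and 12.3 in mdx, and 15.2 and 16.7 in dy2J. The 3 groups did not overlap and the WT pools lay within 0.7 FPKM of each other. Mean FPKM was 1.98 times WT in mdx and 2.51 times WT in dy2J. The rises were 0.88 ± 0.10 (limma adjusted p = 0.000581) and 1.21 ± 0.11 (limma adjusted p = 0.000504) on the log2 scale, and each was called under all 17 alternatives. The difference between dy2J and mdx, 0.32 with a 95% interval of 0.07 to 0.58, did not pass the adjustment (limma adjusted p = 0.113). Tmem158, Zfp703 and Rab15 had the closest profiles, each at 0.12.

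The ligand gene did not rise with its receptor. Eda was 1.23 to 1.51 FPKM across the WT pools, 0.695 to 0.857 across the mdx pools, and 1.05 and 1.35 with dy2J, and was called lower in mdx (-0.40 ± 0.11, limma adjusted p = 0.0249); it stands outside the rule for named genes and was chosen after its values were seen. Of 13 genes of ectodysplasin and non-canonical NF-kB signalling, 11 were tested, with 6 higher and 1 lower in mdx and 4 higher in dy2J. Under quantile normalization 2 were higher in mdx. Nfkb2, the precursor of the p52 subunit, stood at 2.68, 3.31 and 3.08 FPKM in WT, 6.54, 7.37 and 5.59 in mdx, and 9.99 and 9.86 in dy2J (0.89 ± 0.11 and 1.44 ± 0.13, limma adjusted p = 0.000851 and 0.000418). It was also higher in dy2J than in mdx (0.55 ± 0.13, limma adjusted p = 0.0386). Relb, its partner, and Map3k14, the NF-kB-inducing kinase, were higher in dy2J by 0.81 ± 0.14 and 0.68 ± 0.12 (limma adjusted p = 0.00619 and 0.00611). Traf3, which keeps that kinase low, was higher in dy2J than in mdx (0.44 ± 0.10, limma adjusted p = 0.0345). Macrophages also use these genes, and their markers rose as given above; their part was not tested.

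Bbc3 encodes Puma, a protein that sets off apoptosis at the mitochondrion. It was low everywhere, at 0.805, 0.762 and 0.804 FPKM in WT, 1.62, 1.89 and 1.03 in mdx, and 2.48 and 1.97 in dy2J. The 3 groups did not overlap. The rise was 0.47 ± 0.15 in mdx (limma adjusted p = 0.0351) and 0.84 ± 0.17 in dy2J (limma adjusted p = 0.0103), on a scale that understates changes near 1 FPKM; mean FPKM was 1.91 and 2.81 times WT. The mdx call held in 8 of 16 alternatives (adjusted p 0.00811 to 0.295) and was lost on leaving out any WT pool or mdx replicate 1 or 2. The dy2J call held in 15 of 16 and was lost without dy2J replicate 1 (adjusted p = 0.104, range 0.00517 to 0.104). In the authors' deposited table the q-values of Bbc3 were 0.0683 in mdx and 0.00470 in dy2J. Of 10 other genes of the Bcl-2 family, all tested, 5 were higher (50%) and 1 lower (10%) in mdx and 1 was higher in dy2J (10%). Pmaip1, Bax and Bcl2l1 of this list also stand among the further p53 targets below. Of all tested genes, 23.9% were higher and 12.8% lower in mdx, and 11.5% were higher in dy2J. The death genes Pmaip1 (1.31 ± 0.15), Bcl2l11 (0.82 ± 0.11) and Bax (0.80 ± 0.12) led in mdx (limma adjusted p = 0.000593, 0.00116 and 0.00158). Pmaip1 and Bcl2l11 were lower in dy2J than in mdx (-0.92 ± 0.17 and -0.74 ± 0.13, limma adjusted p = 0.0176 and 0.0136), and Bax was the gene called higher in dy2J (0.49 ± 0.13, limma adjusted p = 0.0340).

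Sesn2 encodes sestrin 2, a leucine sensor that restrains the growth kinase mTORC1. It stood at 0.854, 1.17 and 1.17 FPKM in WT, 1.50, 1.58 and 1.43 in mdx, and 1.01 and 0.827 in dy2J. All mdx pools lay above all other pools, and dy2J overlapped WT. The difference in mdx, 0.28 with a 95% interval of 0.02 to 0.54, did not pass the adjustment (limma adjusted p = 0.0848), nor did that in dy2J (-0.11, 95% interval -0.40 to 0.18, limma adjusted p = 0.584). Of 16 genes of sestrins, GATOR complexes and mTORC1, 15 were tested; Sesn1 was not called, and Sesn3 was higher in dy2J (0.66 ± 0.14, limma adjusted p = 0.0127). Prkaa2, the AMPK catalytic subunit of muscle, was lower in mdx and in dy2J (-0.81 ± 0.15 and -0.78 ± 0.17, limma adjusted p = 0.00415 and 0.0149). The GATOR1 subunit Nprl3 was lower in dy2J (-0.60 ± 0.09, limma adjusted p = 0.00434) and Seh1l was higher in mdx (0.47 ± 0.10, limma adjusted p = 0.00613).

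A list of 35 further p53 targets gave the wider picture. Of these, 30 were tested, and 6 were higher (20%) and 5 lower (16.7%) in mdx, and 2 higher (6.67%) and 4 lower (13.3%) in dy2J. These shares lie beside 23.9% and 12.8% of all tested genes in mdx and 11.5% and 9.04% in dy2J. The median log2 fold change of the list was 0.02 in mdx and -0.02 in dy2J; both scaling alternatives made the mdx median negative (-0.17 with quantile normalization, with 5 higher and 8 lower, and -0.02 with median ratios, with 6 higher and 9 lower). The largest rises in mdx were those of Zfp365 (0.263, 0.358 and 1.13 FPKM in WT, 2.13, 4.61 and 6.11 in mdx, 1.70 ± 0.30, limma adjusted p = 0.00343), Apaf1, the scaffold of the apoptosome (1.06 to 1.81 FPKM in WT, 5.37 to 7.33 in mdx, 1.50 ± 0.19, limma adjusted p = 0.000791), and Pmaip1. Apaf1 and Pmaip1 were the genes called in dy2J against mdx, both lower in dy2J. In dy2J the gene with the largest called rise was Btg2, an antiproliferative gene (15.2 and 16.0 FPKM beside 4.78 to 9.26 in WT, 1.02 ± 0.24, limma adjusted p = 0.0192).

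Among the targets called lower, Tigar, a regulator of glycolysis, stood at 32.6 to 37.7 FPKM across the WT pools, 15.8 to 24.8 across the mdx pools, and 16.5 and 19.2 with dy2J, and was lower in mdx and in dy2J (-0.85 ± 0.17 and -0.91 ± 0.19, limma adjusted p = 0.00527 and 0.0123). Polk, a DNA polymerase that passes damaged bases, was lower in dy2J (-0.70 ± 0.11, limma adjusted p = 0.00524) and in mdx (-0.71 ± 0.10, limma adjusted p = 0.00142). Classical targets such as Zmat3, Phlda3, Ppm1d and Aen were tested and not called in either model; they stand outside the rule for named genes and were chosen after their values were seen. Phlda3, for example, was 76.4 to 101 FPKM in WT and 80.0 to 88.6 in mdx, a difference of -0.04 ± 0.12 (limma adjusted p = 0.811).

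**Figure D5:**
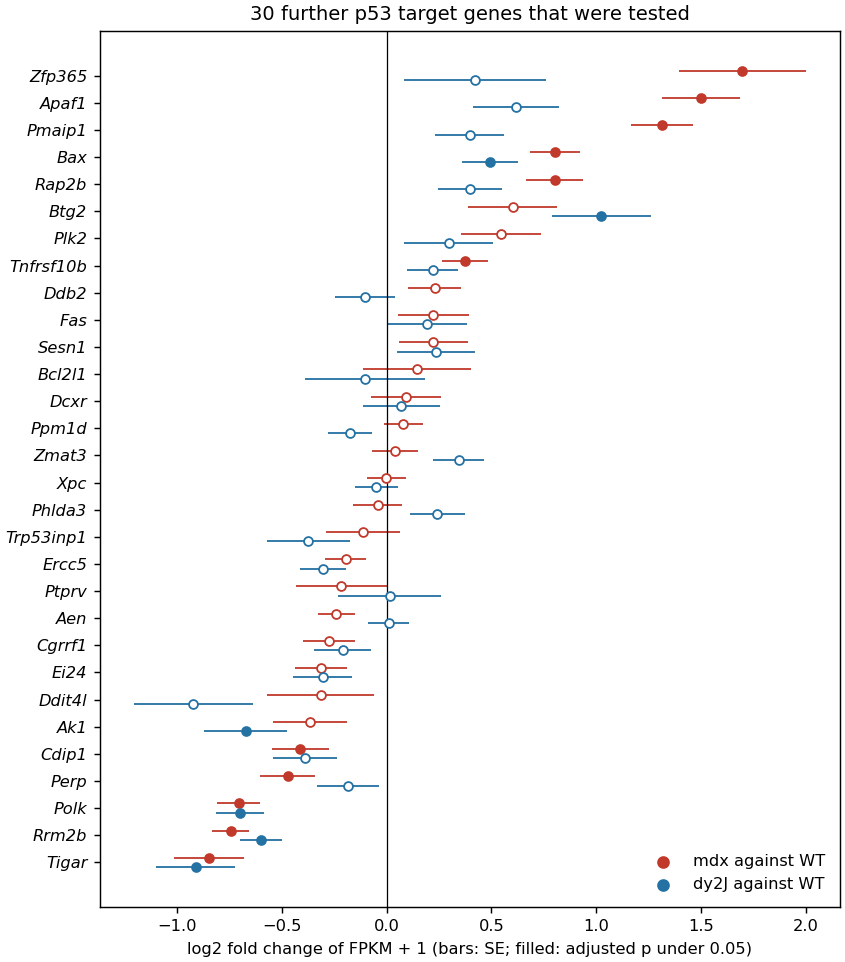
Log2 fold changes of FPKM + 1 with their SE for the 30 tested further p53 targets, mdx against WT in red and dy2J against WT in blue, sorted by the mdx value; filled points have an adjusted p under 0.05. In mdx 6 genes are called to the right of 0 and 5 to the left, in dy2J 2 and 4, and both comparisons share the WT pools.

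Genes associated with senescence, a state in which Cdkn1a and Cdkn2a are often high, were mostly higher in mdx. Of 13 listed genes, 10 were tested, with 7 higher in mdx and 3 in dy2J and none lower. Mmp3, a secreted matrix protease, stood at 0.517 to 1.27 FPKM across the WT pools, 11.6 to 16.9 across the mdx pools, and 4.46 and 4.98 with dy2J (2.96 ± 0.18 and 1.62 ± 0.20, limma adjusted p = 3.85e-05 and 0.00169). Ccl2 and Tgfb1 were higher in mdx (2.16 ± 0.53 and 1.51 ± 0.21, limma adjusted p = 0.0129 and 0.00128), and Igfbp3 was higher in dy2J (1.06 ± 0.25, limma adjusted p = 0.0210). Lmnb1, the lamin gene that is usually low in senescent cells, was higher in mdx, 2.64 to 4.51 FPKM beside 1.46 to 1.69 in WT (0.76 ± 0.15, limma adjusted p = 0.00614); it stands outside the rule for named genes and was chosen after its values were seen. Fibroblasts and macrophages express several of these genes; the 6 markers of fibro-adipogenic progenitors summed to 880.3 to 951 FPKM over WT pools, 1421 to 1606 over mdx pools, and 1347 to 2071 over dy2J pools, with 4 higher in mdx and 3 in dy2J, and their part was not tested.

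The remaining markers bear on all 10 genes alike. Endothelial markers were lower, 4 of 6 in mdx and 2 of 6 in dy2J, and 2 of 4 tested Schwann cell markers were lower in mdx and 2 higher in dy2J. Adipocyte markers had 2 of 5 higher in dy2J and none called in mdx. None of the 4 tested neutrophil markers was called, and their sum ranged from 2.79 to 44.7 FPKM within WT alone. Of 6 markers of T and NK cells, 1 (Cd4) reached the expression minimum and was higher in mdx.

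Profiles near those of the other genes had small differences. Sertad1, Tnfrsf1a and Fgfrl1 were nearest to Gadd45a (0.12, 0.12 and 0.15). Fbxw11, Txnl1 and Etf1 were nearest to Mdm2, each between 0.03 and 0.04. Ap3s1, Dstn and Gpm6b were nearest to Bbc3 (0.06, 0.06 and 0.07), Armc5, Gtf2a1 and Smarcc1 to Trp53 (0.04, 0.05 and 0.05), and Osbpl11, Zbtb7a and Cherp to Sesn2 (0.04, 0.04 and 0.05). Genes that change little in any group have many near profiles by this measure.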

How the data were processed

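The deposited table gives 1 FPKM value for each gene and library, made by the authors, per the file headers. Cufflinks 2.2.1 with Cuffdiff and Cuffnorm, the aligner TopHat2 2.0.13, the build GRCm38, and for the reads Trim Galore 0.3.7 and bcl2fastq 2.15.0.4 are listed in the submitters' processing notes, with no settings. The authors' deposited q-values (adjusted p-values) are quoted where named. Strand use and scaling between libraries are not given in the sources used here. Low values of 22765 genes with 1 transcript gave no read steps (23.3% to 25.4% within 0.1 of a whole step, 20% by chance), so depth is unknown and no counting interval is given. Summed FPKM ranged from 556218 to 785513 per library, and 25.9% to 45.9% of it was mitochondrial. Both ends of the sum were dy2J pools, replicate 1 at 556218 (26.0% mitochondrial) and replicate 2 at 785513 (45.9%).

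Values were analysed as log2(FPKM + 1) with limma 3.58.1 in R 4.3.3, keeping genes of at least 1 FPKM in at least 2 libraries. All 8 libraries entered 1 model with a mean-variance trend (5 residual degrees of freedom), with 3 two-sided contrasts and Benjamini-Hochberg adjustment over 12830 genes at 0.05. The code of the model was run on simulated normal values with changes put into mdx alone. This checks the code and not whether the model suits these pools, their scaling or the 2 dy2J libraries. Fold changes on this scale understate changes of low genes. For single ratios exact two-sided permutation tests were used, which cannot go below 0.1 here. Nothing ties pools to separate experiments, so p-values measure the spread between pools.

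The 10 genes, 14 pathway lists and 10 marker lists (253 symbols in all with the members) were chosen with earlier results of these data known. Named from each list and comparison were up to 3 called genes with the largest change and no value listed at 0, plus the 3 closest profiles of each member. Promoter windows came from RefSeq (GRCm38.p6) and overlaps from GENCODE M21; protein sequences were not used here. Alternatives were other pseudocounts (0.1, 0.5), no expression minimum, a mean of at least 5 FPKM, quantile normalization, median-ratio rescaling, fits of the compared groups alone, no trend, a replicate block, and leaving out each pool. Tables used pandas 2.3.3 and numpy 2.4.6 under Python 3.11.15, and figures matplotlib 3.10.9.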

Additional observations from a re-analysis of the deposited data

Results flagged for a closer look

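Gadd45b was flagged because the change from WT differed between the models: it was -0.71 (SE 0.13) in dy2J against mdx on the log2 scale (limma adjusted p = 0.0170), with -0.72 in dy2J and -0.01 in mdx against the same WT pools. Both dy2J pools (9.26 and 9.54 FPKM) were below all 3 mdx pools (13.9 to 17.3). With the replicate block the call was lost (limma adjusted p = 0.0570). Leaving out either dy2J pool ended the call (adjusted p = 0.120 and 0.101), and the strain of the dy2J mice cannot be told apart from their mutation.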

How the results depend on the processing

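Of 504 values of the 10 genes under alternative settings, 465 kept their direction and their side of the threshold, 24 lost a call, 5 gained one and 10 changed sign; all sign changes were in genes without a call. These were Gadd45b in mdx against WT (-0.069 to 0.084 when a pool was left out, above 0 without WT replicate 2 or mdx replicate 2), Mdm2 in dy2J against WT (0.0051 with quantile normalization, -0.20 to 0.15 when a pool was left out, above 0 without dy2J replicate 1), Mdm2 in dy2J against mdx (-0.17 to 0.18 when a pool was left out, below 0 without mdx replicate 1 or dy2J replicate 2) and Gadd45a in dy2J against mdx (-0.019 with the replicate block, -0.28 to 0.31 when a pool was left out, below 0 without mdx replicate 2, mdx replicate 3 or dy2J replicate 1). Leaving out 1 pool gave 3 to 6 called members in mdx against WT (3 without WT replicate 3), 2 to 6 in dy2J against WT (2 without dy2J replicate 1) and 0 to 2 in dy2J against mdx; over all genes the counts were 3477 to 4715 in mdx against WT, 486 to 3306 in dy2J against WT (lowest without dy2J replicate 1, 1174 without dy2J replicate 2) and 144 to 1206 in dy2J against mdx (lowest without dy2J replicate 1, 238 without dy2J replicate 2). Where 1 dy2J pool was left, it was assumed to vary like the other groups. Quantile normalization called 2 members in dy2J against mdx. Over all genes, 4714, 2638 and 825 were called; a mean of at least 5 FPKM gave 2901 in mdx against WT and 531 in dy2J against mdx, and in the latter no expression minimum (24600 genes tested) gave 510 and the compared groups alone 396. The share of called genes that were higher was 65.1%, 56.0% and 43.2%; it was 42.6%, 44.0% and 59.1% with quantile normalization, which moved the median of all genes in mdx from 0.07 to -0.07, and 56.4%, 56.8% and 57.3% with median ratios. The cause of these shifts was not tested. Same-numbered pools correlated at -0.146 to 0.085 in their deviations from the group means, and differently numbered pools at -0.116 to 0.146. Between WT and mdx the values were 0.045 to 0.085 for the same number and -0.116 to 0.060 for different numbers. With 2 dy2J pools the deviations are equal and opposite, so these values cannot settle whether the numbers pair the pools. The replicate block called 0 members in dy2J against mdx (Gadd45b, adjusted p = 0.0570). It called 1668 and 509 genes in dy2J against WT and against mdx. The depth is unknown, so no counting error could be given for any of the 10 genes.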
